A study of Mus musculus with 6 samples.

Results

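The cholesterol synthesis and handling genes were a list of 29 mouse genes: the enzymes from acetoacetyl-CoA to cholesterol, the proteins that regulate them, and the proteins that move cholesterol within cells or out of them. Members were chosen by gene symbol, older synonyms included, and where a gene had several probe sets, the one brightest on average across the 6 arrays stood for it. Of the 29 genes, 28 had a named probe set, among 18194 genes in all. Acat2, an acetyl-CoA acetyltransferase gene, had no probe set carrying its symbol alone and was not analysed here.

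Polyadenylated RNA from 4 MIN6 samples and 2 islet samples had been measured, with 1 Affymetrix mouse array for each. MIN6 is a mouse insulin-secreting beta-cell line. It had been infected for 48 h, at a multiplicity of infection of 250, with adenoviral vectors carrying miR-7a (AdmiR7a, 2 arrays), miR-7b (AdmiR7b, 1 array) or, as control, green fluorescent protein (AdGFP, 1 array). All 4 samples, control included, were thus infected, in high-glucose DMEM (4.5 g/l) with Glutamax, 2-mercaptoethanol and 2% serum. The series describes the miR-7a construct as miR-7a2. The islets, on a C57BL/6 background, were wild type (WT, 1 array) or lacked miR-7a2 (KO, 1 array) through a Lox/Cre deletion limited to beta cells; the Cre driver and the age of the mice were not given in the sources used here. The non-beta cells of KO islets therefore kept the gene. Whether the AdmiR7a duplicates were separate cultures is not stated, so p-values below measure the spread between these arrays, which may be technical.

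Cholesterol is built from acetyl-CoA through mevalonate, farnesyl diphosphate, squalene and lanosterol, in the cytosol and the endoplasmic reticulum. When sterol in the endoplasmic reticulum is low, SCAP carries the transcription factors SREBP-1 and SREBP-2 to the Golgi for cleavage, and the INSIG proteins hold SCAP back when sterol is high. SREBP-2 mainly drives the cholesterol enzymes and SREBP-1c mainly those of fatty acid synthesis. In beta cells cholesterol is a component of the membranes of insulin granules and of the plasma membrane where they fuse.

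Both microRNAs delivered by the vectors are shown because they share the seed, bases 2 to 8, which is in capitals. The mature sequences come from RefSeq (GRCm38.p6).
miR-7a-5p (Mir7-2, chr7:78888295-78888317, plus strand): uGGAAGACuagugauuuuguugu
miR-7b-5p (Mir7b, chr17:56243017-56243040, plus strand): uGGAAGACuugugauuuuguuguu
Counted from the 5′ end, miR-7b differed from miR-7a by A10U, outside the seed, and was 1 base longer at the 3′ end.

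The RefSeq promoter table (250 bases before to 50 after a start) held 31 promoters of 23 of the 29 genes. CCAAT, the core of the site bound by NF-Y, a partner of SREBP at sterol gene promoters, lay on either strand in 21 of the 31 promoters (67.7%), against 37.4% of 32851 promoters of the same length. TCACNCCAC, a core of sterol regulatory elements with N for any base, lay in 1 of 31 (3.23%), that of Hmgcs1 at -137 to -129, against 1.24% of all promoters. Sterol regulatory elements vary, and only these letters were searched. A promoter with both motifs (Hmgcs1), one of a gene that rose with miR-7 (Idi1) and one of a gene that fell (Hsd17b7) are printed from GRCm38.p6. Capitals mark both motifs on either strand; CCAAT on the other strand reads ATTGG, and no 2 of these matches overlap.
Hmgcs1 (chr13:119690101-119690400, plus strand): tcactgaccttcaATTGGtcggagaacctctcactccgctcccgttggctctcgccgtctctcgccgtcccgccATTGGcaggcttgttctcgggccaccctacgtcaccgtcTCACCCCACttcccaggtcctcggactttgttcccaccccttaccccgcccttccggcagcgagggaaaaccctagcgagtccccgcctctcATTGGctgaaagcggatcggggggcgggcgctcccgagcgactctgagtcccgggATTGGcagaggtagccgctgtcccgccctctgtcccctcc
Idi1 (chr13:8885356-8885655, plus strand): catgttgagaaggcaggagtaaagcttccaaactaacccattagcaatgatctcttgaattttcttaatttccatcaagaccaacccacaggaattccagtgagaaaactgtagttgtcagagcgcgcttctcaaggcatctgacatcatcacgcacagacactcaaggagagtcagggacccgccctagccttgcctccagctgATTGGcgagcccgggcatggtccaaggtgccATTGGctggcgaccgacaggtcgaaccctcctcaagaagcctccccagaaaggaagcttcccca
Hsd17b7 (chr1:169969156-169969455, minus strand): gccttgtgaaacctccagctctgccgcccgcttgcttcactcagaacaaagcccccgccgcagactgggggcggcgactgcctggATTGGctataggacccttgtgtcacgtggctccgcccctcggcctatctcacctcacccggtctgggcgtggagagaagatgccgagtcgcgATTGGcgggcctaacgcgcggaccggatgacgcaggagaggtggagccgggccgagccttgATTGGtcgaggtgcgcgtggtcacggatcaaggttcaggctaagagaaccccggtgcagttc
CCAAT was found 2 times in the Idi1 promoter and 3 times in that of Hsd17b7. Of the other genes that rose with miR-7, Lss and Dhcr7 held it in at least 1 promoter and Abca1 did not. Fdft1 and Npc1, which also rose, had no promoter listed. Each gene that fell held it in at least 1 promoter. Whether the motif goes with direction was not tested.

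Values were on a log2 scale with a floor of 2.17, and the arrays had upper quartiles of 7.95 to 8.01. Across genes at a mean of 4 or more, the AdmiR7a arrays differed from each other by an SD of 0.196 and from AdGFP by 0.505 and 0.502. Of 8 beta-cell markers, 7 lay above 4 on at least 1 MIN6 array; Slc2a2, the glucose transporter GLUT2, did not (2.52 to 3.84), though it stood at 14.5 and 14.1 in KO and WT islets. All 6 macrophage and all 5 stellate cell markers were below 4 on the MIN6 arrays, while 5 of 6 and 2 of 5 were above it in islets. Array-wide, 27 of the 28 genes measured passed the filter, a mean of at least 4, in MIN6, 28 in islets and 27 over all 6 arrays; Star was the one left out, with a mean of 3.98 over the 6 arrays.

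With miR-7 raised in MIN6 cells, genes of the pathway were called in both directions, as were genes at large. Enzyme genes from the isoprene unit to lanosterol (Idi1, Fdft1, Lss), the last enzyme gene (Dhcr7) and genes of cholesterol movement (Npc1, Abca1) rose. The regulator gene Srebf1, the early enzyme gene Mvk and 3 enzyme genes of the steps after lanosterol (Tm7sf2, Hsd17b7, Ebp) fell. In the pooled limma fit, the 3 miR-7 arrays against the AdGFP array, 6 of 27 genes rose (22.2%) and 5 fell (18.5%), taking 0.05 as the limit for p adjusted by Benjamini and Hochberg's method. Of the 10367 genes tested 14.0% rose and 12.1% fell. The median difference was 0.15 (log2) over the 27 genes and 0.06 over all genes tested.

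**Figure D1:**
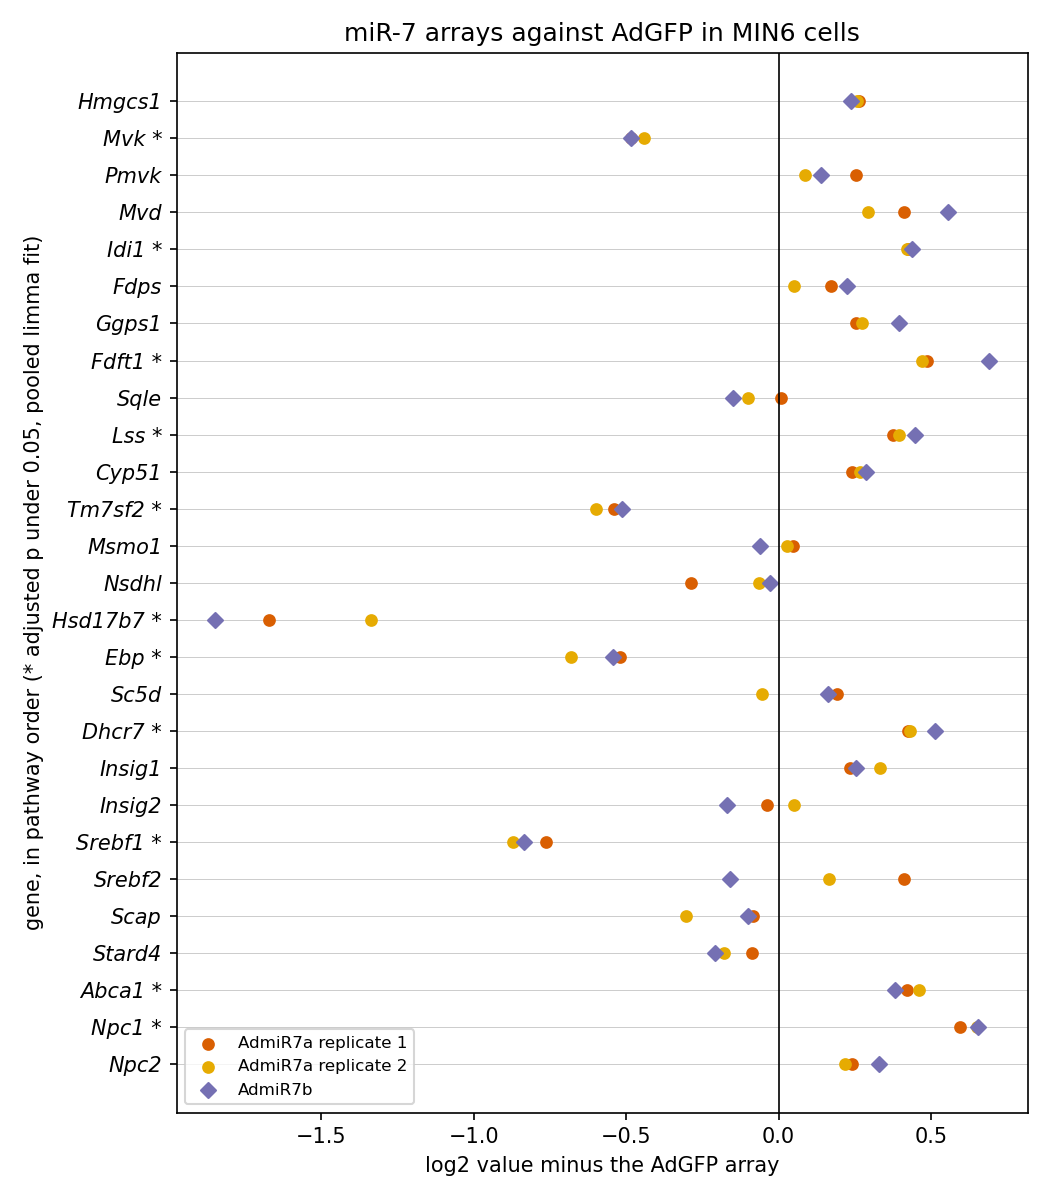
Difference of each miR-7 array from the AdGFP array (log2, horizontal) for the 27 genes that passed the MIN6 filter. Enzyme genes are at the top, followed by the regulators and the genes that move cholesterol, with Npc2 at the bottom. Points are single arrays and an asterisk marks an adjusted p under 0.05 in the pooled limma fit. Hsd17b7 lies between -1.85 and -1.34, and the other genes between -0.87 and 0.69.

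Among the enzymes that lead to farnesyl diphosphate, Idi1, which isomerises isopentenyl diphosphate, stood at 11.01 with AdGFP, 11.44 on both AdmiR7a arrays and 11.45 with AdmiR7b. It rose by 0.43 ± 0.07 (log2, SE; adjusted p = 0.0254), with the miR-7 arrays above AdGFP and nearly equal. Mvk, the mevalonate kinase gene, went the other way, from 7.27 with AdGFP to 6.79, 6.83 and 6.79, and fell by 0.47 ± 0.07 (adjusted p = 0.0233). The neighbours of Mvk in the pathway were higher on all 3 miR-7 arrays and did not pass the test. Hmgcs1, which makes HMG-CoA, stood at 12.14 with AdGFP and between 12.38 and 12.40 with miR-7 (difference 0.25 ± 0.07, adjusted p = 0.068). Mvd, the decarboxylase gene, stood at 5.79 against 6.20, 6.08 and 6.34 (0.42 ± 0.13, adjusted p = 0.0817). Pmvk, the phosphomevalonate kinase gene (0.16), and Fdps, the farnesyl diphosphate synthase gene (0.15), had adjusted p of 0.287 and 0.328. The 6 genes of this segment thus held 1 that rose and 1 that fell, with a median of 0.21.

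Fdft1, which encodes squalene synthase and commits farnesyl diphosphate to sterols, stood at 11.95 with AdGFP against 12.43, 12.42 and 12.63 with miR-7. It rose by 0.55 ± 0.12 (adjusted p = 0.0445). Lss, the lanosterol synthase gene, rose by 0.40 ± 0.07 (adjusted p = 0.0320), from 9.95 to 10.32, 10.34 and 10.39. Between them in the pathway lies Sqle, squalene epoxidase, which stood at 10.68 with AdGFP and at 10.69, 10.58 and 10.53 with miR-7. AdGFP lay within the range of the miR-7 arrays for Sqle (difference -0.08 ± 0.09, adjusted p = 0.552).

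After lanosterol the genes diverged. Cyp51, the lanosterol demethylase gene, stood at 11.33 with AdGFP and at 11.57, 11.59 and 11.61 with miR-7, above it on each array without passing the test (0.27 ± 0.07, adjusted p = 0.0645). Tm7sf2, a sterol C14 reductase gene, fell by 0.55 ± 0.08 (adjusted p = 0.0209), from 8.58 to 8.04, 7.98 and 8.07. Ebp, the sterol isomerase gene, fell by 0.58 ± 0.10 (adjusted p = 0.0278), from 10.81 to 10.29, 10.13 and 10.27. For both, all miR-7 arrays lay below AdGFP.

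Hsd17b7, the 3-ketosteroid reductase gene of sterol demethylation, had the largest difference of the 27. It stood at 6.10 with AdGFP and at 4.43, 4.76 and 4.25 with miR-7, and fell by 1.62 ± 0.22 (adjusted p = 0.0206), a 3.07-fold difference. The miR-7 values lay close to the filter level of 4. The other genes of the demethylation steps did not pass. Msmo1, the C4-methylsterol oxidase gene, was at 0.00 ± 0.08 (adjusted p = 0.977), and Nsdhl, the dehydrogenase gene that acts with it, at -0.13 ± 0.13 (adjusted p = 0.511). Sc5d, the C5 desaturase gene, was at 0.10 ± 0.13 (adjusted p = 0.594). Dhcr7, which reduces 7-dehydrocholesterol to cholesterol, stood at 9.26 with AdGFP and at 9.69, 9.69 and 9.78 with miR-7, and rose by 0.46 ± 0.08 (adjusted p = 0.0291). Of the 11 genes from squalene to cholesterol, 3 rose and 3 fell, with a median of 0.00.

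Among the regulators, Srebf1, which encodes SREBP-1, stood at 11.57 with AdGFP and at 10.81, 10.70 and 10.74 with miR-7. It fell by 0.82 ± 0.08 (adjusted p = 0.0137), a 1.77-fold difference and the lowest adjusted p among the 27 genes. Insig1, itself an SREBP target and the sterol-sensing brake on SCAP, stood at 11.95 against 12.18, 12.28 and 12.20 (0.27 ± 0.08, adjusted p = 0.0796). Its relative Insig2 (-0.05, adjusted p = 0.755), Scap (-0.16, adjusted p = 0.37) and Srebf2, the SREBP-2 gene (0.14, adjusted p = 0.699), did not pass. For Srebf2 the miR-7 arrays lay on both sides of AdGFP, at 7.53, 7.29 and 6.96 against 7.12.

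Of the genes that move cholesterol, Npc1, whose protein passes cholesterol out of lysosomes, rose by 0.63 ± 0.07 (adjusted p = 0.0166), from 9.22 with AdGFP to 9.82, 9.87 and 9.88. This was the largest rise of the 27 genes, a 1.55-fold difference. Npc2, the soluble partner that hands cholesterol to NPC1, was higher on all 3 miR-7 arrays (12.83 against 13.07, 13.05 and 13.16) but did not pass (0.26 ± 0.08, adjusted p = 0.0901). Abca1, the transporter that loads cholesterol onto apolipoprotein A-I, rose by 0.42 ± 0.08 (adjusted p = 0.0307), from 9.61 to 10.04, 10.07 and 10.00. Stard4, a cytosolic sterol carrier gene, was at -0.16 ± 0.09 (adjusted p = 0.236). Star, the mitochondrial cholesterol import gene, lay between 2.75 and 3.03 on the 4 MIN6 arrays and was not tested there.

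Every MIN6 difference rests on 1 AdGFP array. Leaving out any 1 of the 3 miR-7 arrays left 0 calls among the 27 genes and over all genes tested, with a lowest adjusted p over all genes of 0.065 without AdmiR7a replicate 1, 0.0784 without AdmiR7a replicate 2 and 0.0666 without the AdmiR7b array; with no filter on dim genes, 3 of the genes rose and 2 fell. Over all 18194 genes, 403 rose and 540 fell without that filter. Of the 11 genes, Idi1, Npc1, Mvk and Srebf1 were also called without the filter. The other 7, Hsd17b7, Ebp, Fdft1, Dhcr7, Abca1, Lss and Tm7sf2, were not, while Hmgcs1 was.

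Ggps1, which makes geranylgeranyl diphosphate for protein prenylation, had probe sets that moved in opposite directions. The probe set used stood at 8.73 with AdGFP and at 8.99, 9.01 and 9.13 with miR-7 (0.31 ± 0.09, adjusted p = 0.0817). Of its other 3 probe sets, 1 was also higher with miR-7 (0.35) and 2 were lower (-0.74 and -0.77), all at MIN6 means above 7. Which transcript forms each of them reads was not analysed here. Srebf2 and Stard4 also had probe sets of opposite sign: 0.14 against -0.54 for Srebf2, and -0.16 and -0.37 against 0.16 for Stard4. These 3 were the genes with opposite signs among 13 that had more than 1 probe set at a mean of 4 or more. For the genes that passed the test and had a further probe set at that level, the further one moved the same way: Mvk (-0.30), Idi1 (0.49), Fdft1 (0.47) and Lss (0.54). For Hsd17b7, 2 of the other 3 probe sets were also lower with miR-7 (-0.59 and -0.88) but lay below 4. The Hsd17b7 probe set used ends in x_at, a suffix Affymetrix gives to probes that can match other transcripts as well. Those used for Fdft1 and Hmgcs1 carry the same suffix.

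**Figure D2:**
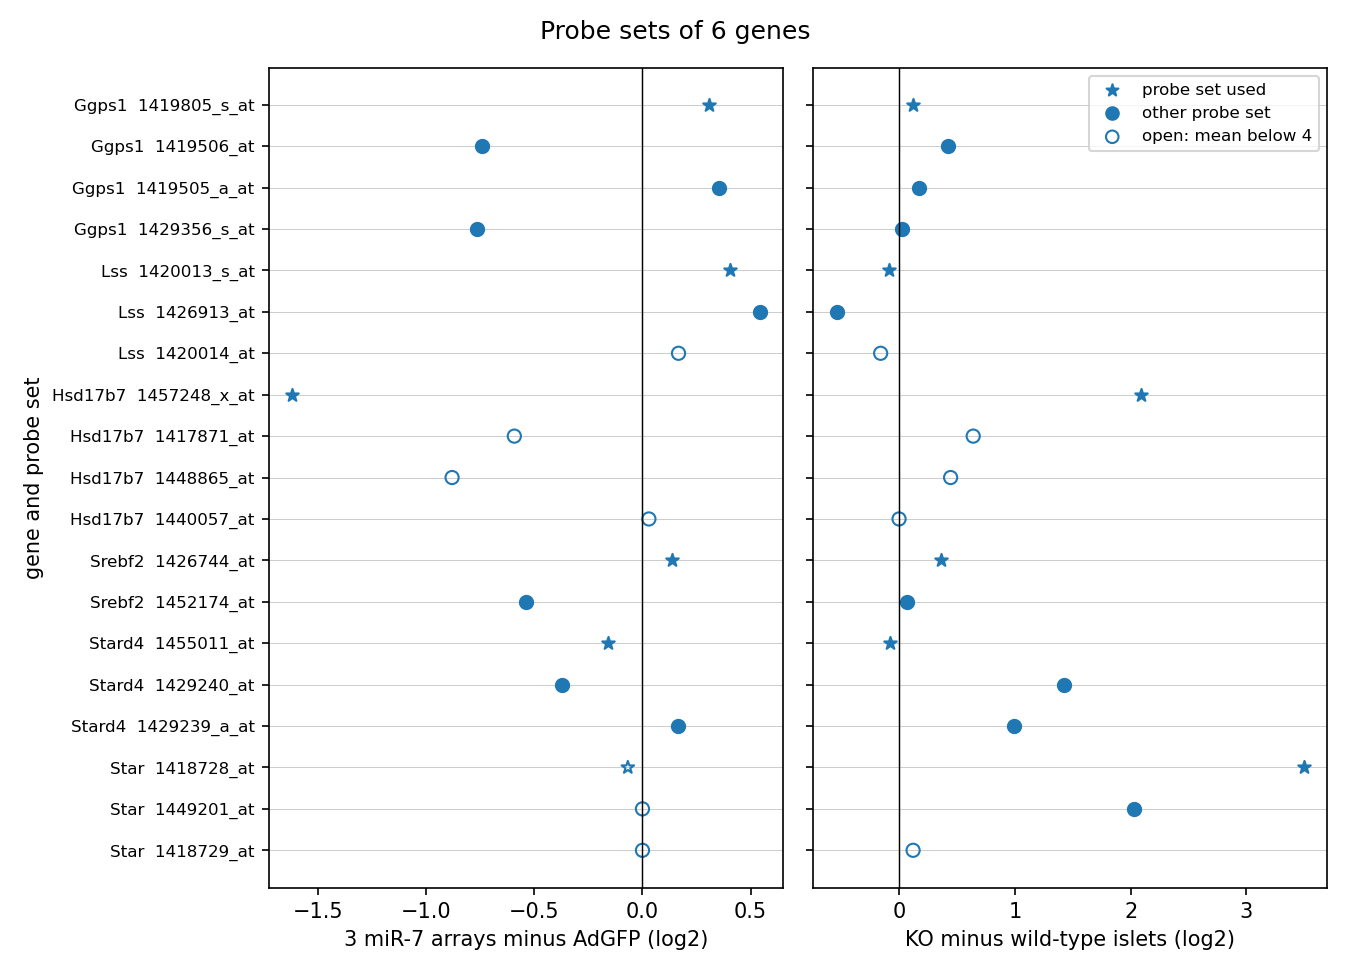
Differences of every probe set of 6 genes, on the left for the 3 miR-7 arrays minus AdGFP and on the right for KO minus WT islets (log2); stars are the probe sets used, open symbols have a mean below 4 in that system. Ggps1 has probe sets at 0.31 and 0.35 and others at -0.74 and -0.77 with miR-7, and Stard4 has probe sets at -0.08, 0.99 and 1.42 in the islets.

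Between the miR-7b and the miR-7a vector the 27 differences ran from -0.45 (Srebf2) to 0.21 (Fdft1), with a median of 0.03. In the limma fit with a mean per vector, 0 of the 27 and 0% of all genes were called, with 597 genes at an unadjusted p under 0.05, none of them among the 27, and a lowest adjusted p of 0.739. This fit has 1 residual degree of freedom, so it does not show that the vectors act alike. AdmiR7a and AdmiR7b are both set against the same AdGFP array, so their differences from it are not independent. In that fit the AdmiR7a arrays against AdGFP gave 0 calls (0%) too, with 3809 genes at an unadjusted p under 0.05; the 11 genes called in the pooled fit had adjusted p of 0.0672 to 0.0889 there. For Hsd17b7 AdmiR7b minus AdGFP was -1.85 and the AdmiR7a arrays averaged -1.50. It was the only one of the 27 past a log2 size of 1 with AdmiR7b; over all genes 3.82% were that much higher and 4.36% that much lower, with 1 array per group and no test.

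Most of the synthesis genes stood higher in MIN6 cells than in islets, with Dhcr7, Sc5d and Idi1 furthest above, while the exporter gene Abca1 stood far lower. Of the 27 genes tested over the 6 arrays, 16 were higher in MIN6 (59.3%) and 5 lower (18.5%), by limma at an adjusted p under 0.05. Over all 10635 genes tested, 35.4% were higher in MIN6 and 32.2% lower. The median difference was 0.55 (log2) over the 27 genes against 0.04 over all genes tested.

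**Figure D3:**
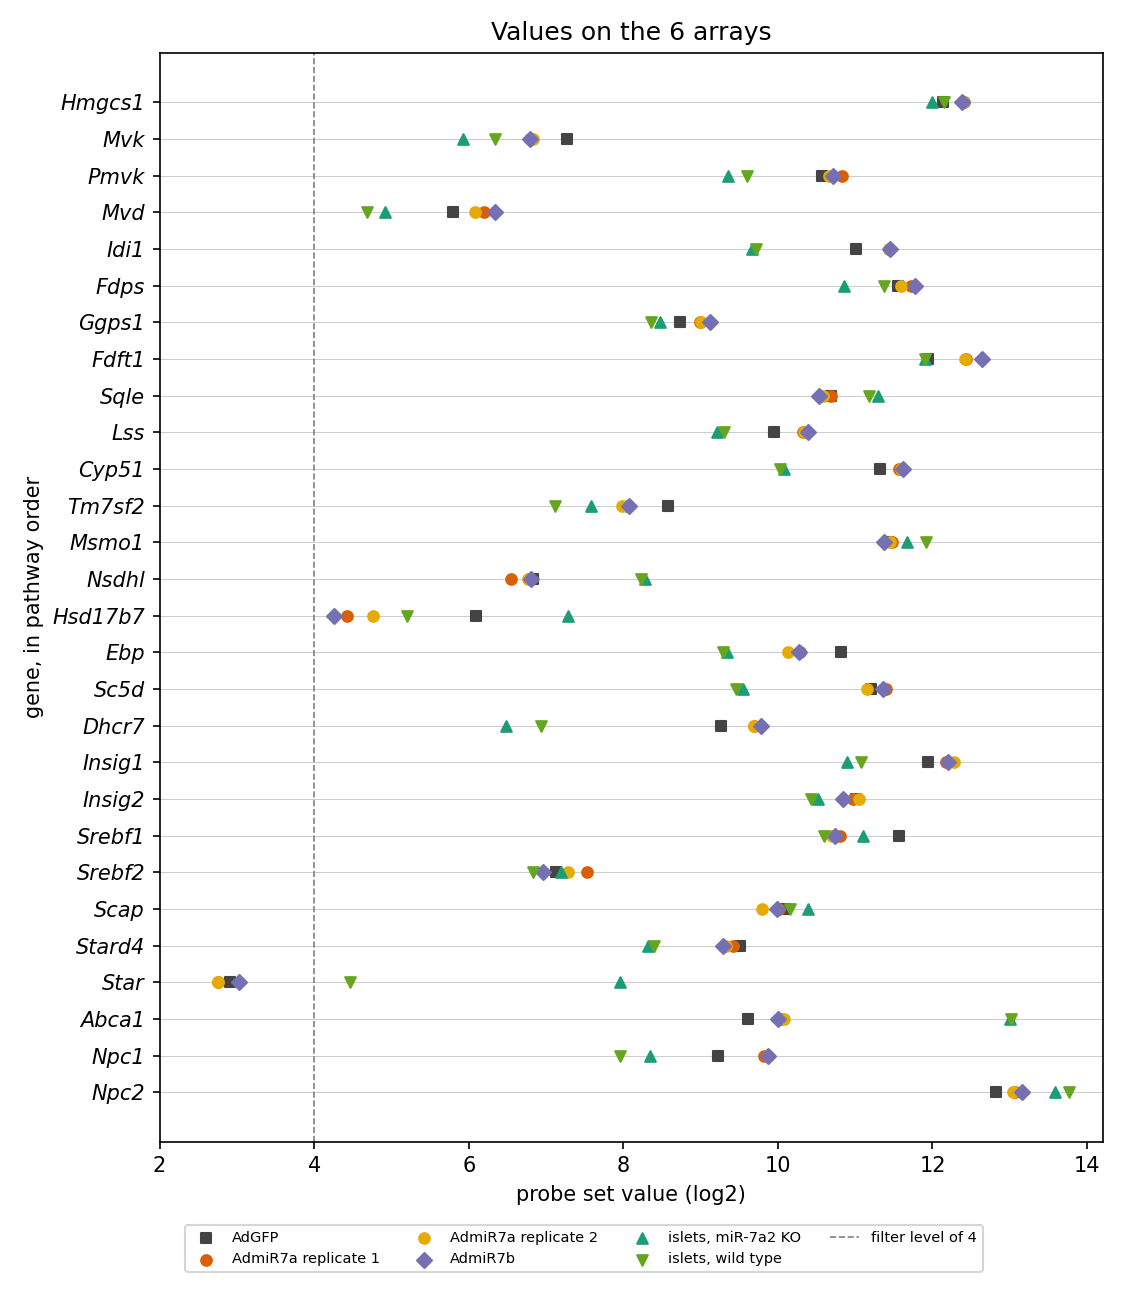
Probe set values (log2, horizontal) of the 28 genes on the 6 arrays, in pathway order; each point is 1 array and the dashed line is the filter level of 4. MIN6 symbols lie to the right of islet symbols for most synthesis genes, such as Dhcr7 (9.26 to 9.78 against 6.48 and 6.94), and to the left of them for Abca1 (9.61 to 10.07 against 13.0 and 13.0).

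Dhcr7 had the largest excess in MIN6: it stood between 9.26 and 9.78 on the 4 MIN6 arrays, and at 6.48 in KO and 6.94 in WT islets. It was higher in MIN6 by 2.90 ± 0.20 (log2, SE; adjusted p = 4.22e-05), a 7.46-fold difference. Sc5d, the step before it, was higher by 1.77 ± 0.11, at 11.15 to 11.39 against 9.54 and 9.46. Idi1 was higher by 1.65 ± 0.15 and Cyp51 by 1.47 ± 0.11, and in neither did any MIN6 array come near the islet values. Among the other synthesis genes, Mvd was higher by 1.30, Pmvk by 1.21, Ebp by 1.06, Lss by 0.99, Tm7sf2 by 0.82, Mvk by 0.78 and Fdps by 0.55. Their adjusted p lay between 0.000208 and 0.024. For Lss the excess depends on the probe set: a further one averaged 9.09 in MIN6 and 9.16 in islets (-0.07). Hmgcs1 (0.26, adjusted p = 0.0902) and Fdft1 (0.45, adjusted p = 0.0802), which stand at the entry to mevalonate and at the branch to sterols, did not pass.

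The synthesis genes were not all higher in the cell line. Nsdhl was lower in MIN6 by 1.52 on the log2 scale (MIN6 minus islets -1.52 ± 0.11), at 6.55 to 6.83 against 8.28 and 8.23. Sqle was at -0.62 ± 0.09 and Msmo1 at -0.37 ± 0.10, both called lower in MIN6 (adjusted p = 0.00156 and 0.0196). Hsd17b7 was at -1.36 ± 0.73 (adjusted p = 0.143), with AdGFP, at 6.10, between the WT (5.20) and KO (7.29) islet values.

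Among the regulators, Insig1 was higher in MIN6 by 1.17 ± 0.12 and Insig2 by 0.49 ± 0.10, while Srebf1 (0.10), Srebf2 (0.21) and Scap (-0.30) did not pass. Srebf1 was 0.97 higher with AdGFP than in WT islets, whereas the miR-7 arrays (10.70 to 10.81) lay nearer to WT (10.60). Without the AdGFP array, or without WT, the MIN6 minus islets difference of Srebf1 changed sign.

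Cholesterol handling split by direction. Abca1 had the largest difference of all 27 genes: it stood between 9.61 and 10.07 in MIN6 and at 13.0 in both islet samples, lower in the cell line (-3.08 ± 0.15, adjusted p = 9.97e-06), an 8.44-fold difference. Npc2 was also lower in MIN6 (-0.65 ± 0.12, adjusted p = 0.00389). Npc1 was higher by 1.54 ± 0.23, Stard4 by 1.02 ± 0.10 and Ggps1 by 0.54 ± 0.13. Leaving out 1 array ended the call for 5 genes. The Fdps difference was 0.29 without KO, 0.53 without AdmiR7a replicate 1 and 0.51 without AdmiR7b (adjusted p = 0.108, 0.0603 and 0.0580), and that of Mvk 0.58 without KO (0.0925). Msmo1 was at -0.34 without AdmiR7b and -0.24 without WT (0.0512 and 0.0719), and without WT Ggps1 was at 0.48 and Tm7sf2 at 0.59 (0.0685 and 0.126). Without AdGFP, Hmgcs1 (0.32, adjusted p = 0.0130) and Fdft1 (0.59, 0.00247) were called higher, and Hsd17b7 (-1.76, 0.0397) and Scap (-0.34, 0.0407) lower. For Ggps1 the probe sets differed here too, with 2 of 4 lower in MIN6 (-0.70 and -0.51). Star was below 4 in MIN6 and above it in both islet samples, at 7.96 in KO and 4.46 in WT.

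Markers of non-beta endocrine cells, such as Gcg and Sst, summed to 12.9 to 13.5 (log2) in MIN6 and 17.7 in both islet samples. Islets also hold cell types that MIN6 cultures lack. The summed level of the macrophage and immune markers was 4.83 to 4.85 (log2) on the MIN6 arrays and 10.6 in both islet samples, and that of stellate and fibroblast markers 4.49 to 4.50 against 9.48 in KO and 9.81 in WT. Their part in the differences was not tested, and in RNA of whole islets a change in the number of cells of a type cannot be told apart from a change in RNA per cell. The actin control probe sets had a 3′ minus 5′ difference of 1.43 to 1.48 in MIN6 and of 2.65 and 2.77 in islets, and the hybridisation controls averaged 11.6 to 11.9 against 10.0 and 10.0; these features and the cell source cannot be told apart here.

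In the islets, deleting miR-7a2 from beta cells went with 2 differences past a log2 size of 1 among the 28 genes, Star and Hsd17b7, both higher in KO. That is 7.14% of the 28, against 1.61% of 10553 genes that were that much higher in KO; 0 of the 28 were that much lower, against 1.23% of all. The median KO minus WT difference was 0.05 over the 28 genes and -0.02 over all. How many mice gave each islet sample is not given in the sources used here. With 1 array per genotype there was no replicate check and no test of any islet difference.

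Star, which encodes the protein that brings cholesterol to the inner mitochondrial membrane for steroid synthesis, stood at 7.96 in KO and 4.46 in WT, a difference of 3.50 or 11.3-fold. The WT value lay just above the filter level. A further probe set of Star differed in the same direction (6.29 against 4.26), and the remaining one was below 4 in both (2.42 and 2.30). The genes of steroid synthesis enzymes stood near the floor of the arrays. Cyp11a1, Hsd3b1, Cyp17a1, Cyp21a1 and Cyp11b1, with the steroidogenic regulator gene Nr5a1, lay between 2.17 and 2.39 on all 6 arrays. The marker list of steroidogenic tissue therefore stood near the lowest value of the arrays in KO and WT alike.

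Hsd17b7 stood at 7.29 in KO and 5.20 in WT, a difference of 2.09 or 4.25-fold. In MIN6 it was the gene that fell most with miR-7. Of its dim probe sets, some were higher in KO (by 0.64 and 0.45) and another stood at 2.17 in both, with all values below 4. As in MIN6, the Hsd17b7 probe set used is an x_at one, whose probes can match other transcripts. Tm7sf2, which acts in the same part of the pathway, was 0.47 higher in KO (7.58 against 7.11), and Ebp 0.05 higher (9.34 against 9.29).

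Among the remaining synthesis genes, those lower in KO were Fdps (10.85 against 11.37, KO minus WT -0.52), Dhcr7 (-0.46), Mvk (-0.41), Msmo1 (-0.25), Pmvk (-0.24), Hmgcs1 (-0.14), Lss (-0.08) and Idi1 (-0.05). A further Lss probe set, with an islet mean of 9.16, was at -0.54. Of the 6 genes measured between acetyl-CoA and farnesyl diphosphate, 5 were lower in KO and Mvd was 0.22 higher, with a median of -0.19; over all genes measured in islets 45.5% were above 0 in KO minus WT, and Idi1 turned sign when its probe sets were averaged. Fdft1 (0.00), Nsdhl (0.05), Cyp51 (0.05), Sc5d (0.08), Sqle (0.11) and Ggps1 (0.12) differed by 0.12 or less. The 5 regulators had a median of 0.24, with 4 higher in KO: Srebf1 by 0.51 (11.10 against 10.60), Srebf2 by 0.36, Scap by 0.24 and Insig2 by 0.09, while Insig1 was at -0.18. Further Insig2 probe sets were at -0.18 and -0.02, and Insig2 turned sign when its probe sets were averaged.

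Npc1 was 0.39 higher in KO and Npc2 0.17 lower (KO minus WT -0.17). Abca1 stood at 13.0 in both on the probe set used. A far dimmer Abca1 probe set, with an islet mean of 4.25, was lower in KO (3.65 against 4.85, KO minus WT -1.20). The remaining one, below 4 in both, was lower too (2.32 against 3.18). For Stard4 the probe set used gave -0.08, whereas its other probe sets were 1.42 and 0.99 higher in KO (7.71 against 6.29 and 4.86 against 3.86), so the direction for Stard4 depends on the probe set. The macrophage and immune markers had a summed level of 10.6 in both islet samples. The beta-cell markers and those of non-beta endocrine cells each summed to 17.7 in both. Endothelial markers summed to 10.8 in KO and 11.0 in WT, and stellate and fibroblast markers to 9.48 and 9.81. The ductal markers summed to 4.96 in KO and 3.96 in WT, with Krt19 at 4.45 and 2.68; the spiked poly-A control transcripts averaged 8.37 in KO and 9.50 in WT; their part in these differences was not tested.

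Set side by side, raising miR-7 in MIN6 and losing miR-7a2 in islets use different arrays. Of the 5 genes that fell with miR-7, 4 were higher in KO islets (Hsd17b7, Srebf1, Tm7sf2 and Ebp) and Mvk was lower in both. Among all 1164 genes that fell and were measured in islets, 69.3% were higher in KO, so 4 of 5 is near the background. Of the 6 genes that rose, 5 had a KO minus WT difference below 0 (Dhcr7, Lss, Idi1, Abca1 and Fdft1), the last 2 by less than 0.01 and turning sign when arrays were centred on their medians; Idi1 turned sign when its probe sets were averaged, and Npc1 was higher in both systems. Over all 1365 genes that rose and were measured in islets, 67.6% were lower in KO, so 5 of 6 is read against that share and not as particular to these genes.

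**Figure D4:**
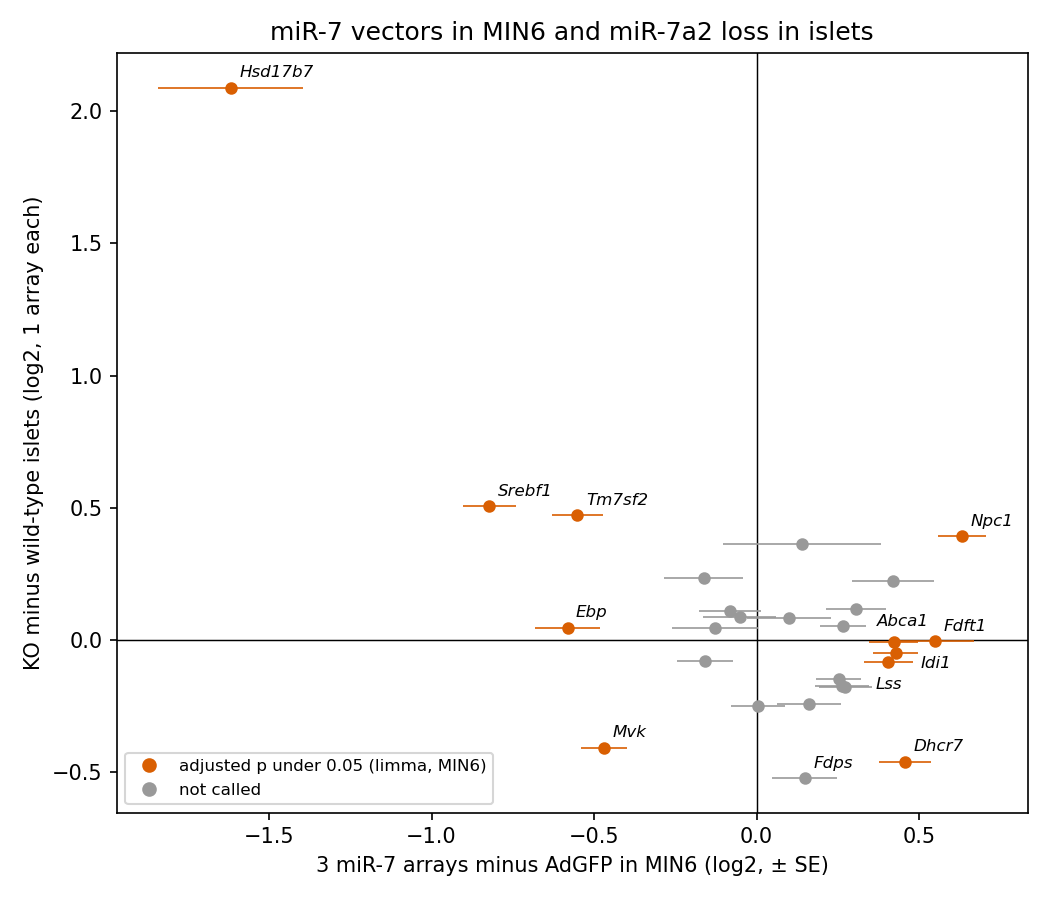
Difference of the 3 miR-7 arrays from AdGFP in MIN6 (log2, horizontal, bars are the SE of the pooled limma fit) against KO minus WT islets (log2, vertical, 1 array each) for 27 genes. Hsd17b7 stands apart at -1.62 and 2.09; Srebf1 and Tm7sf2 lie in the same quadrant, and the genes that rose lie close to or below 0 on the vertical axis except Npc1 (0.39).

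Other sterol and lipid genes, from a list of 68 of which 57 were on the array and 44 passed the MIN6 filter, gave 3 that rose and 11 that fell with miR-7, with a median of -0.08, against 14.0% that rose and 12.1% that fell over all genes tested. Among fatty acid synthesis genes, the usual targets of SREBP-1, 5 of 12 fell and 1 rose. The fatty acid desaturase gene Fads1 fell by 0.91 ± 0.10 (adjusted p = 0.0156), from 12.06 with AdGFP to 11.25, 11.14 and 11.07. Gpam, which starts glycerolipid synthesis, fell by 0.86 ± 0.07, the elongase gene Elovl6 fell by 0.66 ± 0.12, and the stearoyl-CoA desaturase genes Scd2 and Scd1 fell by 0.63 ± 0.11 and fell by 0.54 ± 0.09 (adjusted p = 0.0126, 0.0316, 0.0293 and 0.0260). The phosphatidate phosphatase gene Lpin1 rose by 1.13 ± 0.13 (adjusted p = 0.0157). In islets these genes had a median KO minus WT of 0.32, with 9 of 12 above 0. Over all 10553 genes measured in islets the median was -0.02 and 45.5% were above 0. Scd1 was 1.0 higher in KO (8.05 against 7.05), and 1.61% of all genes were higher by 1 or more.

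Of 5 uptake and esterification genes, the HDL receptor gene Scarb1 rose by 0.85 ± 0.12 (adjusted p = 0.0206) and Mylip, whose product degrades lipoprotein receptors, fell by 0.39 ± 0.07 (adjusted p = 0.0312). Nceh1, a cholesterol ester hydrolase gene, was 1.44 higher in KO than in WT islets (8.73 against 7.29), and stood at -0.46 ± 0.11 with miR-7 (adjusted p = 0.0517). Of 10 regulation genes, Nfyb, an NF-Y subunit gene, rose by 0.54 ± 0.09, whereas Sp1 fell by 0.85 ± 0.12 and Mbtps2, the site-2 protease gene that releases SREBP, fell by 0.46 ± 0.08 (adjusted p = 0.0297, 0.0207 and 0.0295). Of 6 transfer genes Stard5 fell by 0.94 ± 0.09 and the oxysterol-binding protein gene Osbp fell by 0.51 ± 0.12; of 2 oxysterol genes Cyp7b1 fell by 0.42 ± 0.07. None of 7 isoprenoid-using genes and none of 2 efflux genes passed (0 calls in each), and over the system comparison 16 of 46 of these genes were higher in MIN6 and 17 lower, near the shares over all genes (35.4% and 32.2%), with a median of -0.07.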

How the data were processed

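For each of 6 arrays the authors deposited a log2 intensity per probe set, made with GCRMA and the affy package, per the submitters' processing notes; versions are not given in the sources used here. GCRMA corrects background from probe sequence and quantile-normalizes arrays. Of 45101 probe sets, the platform annotation gave 34958 a single symbol, 932 more than 1 and 9211 no symbol; symbols were updated through RefSeq (GRCm38.p6). The genes, lists and tests were chosen with earlier results of these data known. All 28 genes measured are named, and other pathway genes where they passed the pooled fit or differed by 1 or more between islet arrays. Genes with a mean below 4 over the arrays compared were left out. Differences were tested on all remaining genes with limma 3.58.1 (R 4.3.3; lmFit, eBayes), two-sided, with Benjamini-Hochberg adjustment: the 3 miR-7 arrays against AdGFP (2 residual degrees of freedom), a mean per vector (1), and MIN6 against islets (4, vectors and genotype left in the spread). Comparisons with 1 array per group were described by size. The fits were tested on simulated data. The number of arrays limits the precision. Alternatives were other filters, probe set rules, normalizations, a variance trend and leaving out each array.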

Additional observations from a re-analysis of the deposited data

How the results depend on the processing

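With no filter on dim genes, 403 of 18194 genes rose and 540 fell with miR-7, 3 and 2 of them cholesterol genes. As reported, with the filter, 1456 rose and 1257 fell of 10367. With no filter 200 genes were 1 or more lower in KO. Without any 1 miR-7 array all these miR-7 counts ranged from 0 to 0. The AdmiR7a fit, with 0 calls as reported, called 323 genes (1 of the list) with no filter, 1744 (7) with a filter at 6, 967 (3) with averaged probe sets, 2254 (7) with centred arrays and 2261 (8) with renormalized arrays. With AdmiR7b, the 1 lower cholesterol gene became 0 at a filter of 6, which removes Hsd17b7, and 0 with averaged probe sets, where 290 genes were lower; a limma contrast that borrows the AdmiR7a spread called 0 in each direction. In islets, a filter at 6 left 103 genes higher and 52 lower, and averaged probe sets 109 and 74, with 1 cholesterol gene higher. The causes were not tested. In the system comparison, leaving out each array in turn gave 14 to 18 cholesterol genes higher in MIN6 and 4 to 7 lower. No called gene of the list changed sign under any alternative run. Signs of uncalled genes changed for Msmo1, Insig2, Ggps1 and Srebf2 with miR-7, Srebf1 and Srebf2 between systems, and 9 genes in islets, among them Stard4 and Abca1. Leaving out an AdmiR7a array left the fits per vector no residual degree of freedom, so those were not run. No paired analysis was possible because AdmiR7a alone carries replicate numbers in the labels and each other group is a single array.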
